A study of Mus musculus with 4 samples.

Results

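The mitochondrial ribosomal protein genes are the genes whose mouse symbol begins with Mrpl, for the large subunit, or Mrps, for the small subunit, followed by a number. The annotation held 83 such symbols, of which 78 were protein-coding and 5 were processed pseudogenes. Among the 12897 genes that could be named in the deposited transcript assemblies, 76 were members, 48 of 49 large subunit genes and 28 of 29 small subunit genes. Mrpl53, Mrps36 and the 5 pseudogenes were not named in any library and have no values here.

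The libraries came from C2C12, a mouse skeletal myoblast line labelled as strain C57BL/6. Its cells leave the cell cycle in low serum and join into myotubes. Polyadenylated RNA was sequenced as paired ends in 1 library at each of 4 time points. The growth library, at -24 h, is of dividing cells in high serum, and the others are at 60 h, 120 h and 168 h after confluent cells were moved to low serum. All 4 libraries are of this 1 untreated line, and the labels name no other genotype or agent.

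The libraries held 28513976 fragments in growth, 48228887 at 60 h, 24488681 at 120 h and 43845262 at 168 h, so the 120 h library was the shallowest. Levels are RPKM, the fragments of a transcript divided by its length in kilobases and by the size of the library, summed over the assembled transcripts of a gene. Because that sum depends on how long a transcript was assembled in each library, each gene was also measured over a fixed length, the union of its exons assembled in any library, and through its introns. A value after ± is the distance to the deposited confidence limit, which covers counting error and the sharing of fragments among transcripts, and not the variation between cultures. With 1 library per time point no difference below has a replicate check or a p-value. The words rose and fell are kept for a gene whose level differed at least 2-fold on the log2(RPKM + 1) scale, reached at least 1 RPKM in the higher library and had limits that did not overlap. In RNA from a whole culture, fewer cells of a type and less RNA per cell cannot be told apart.

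The mitochondrial ribosome translates the few proteins that mitochondrial DNA encodes, all of them subunits of the respiratory chain and the ATP synthase. Its RNAs come from mitochondrial DNA, and all of its proteins are encoded in the nucleus, made in the cytosol and imported. The large subunit forms the peptide bonds and holds the exit tunnel, which opens towards the inner membrane, and the small subunit binds the messenger RNA and reads the codons. Muscle cells are known for a large respiratory capacity, which grows as myoblasts become myotubes.

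The label of the cells was checked against 8 markers of myoblasts and myotubes, which were all named in the files. Myod1, a myogenic transcription factor, had 193, 215, 134 and 86.1 RPKM across the 4 libraries, in the order growth, 60 h, 120 h and 168 h. Acta1, the skeletal muscle actin, had 18.4, 5150, 7931 and 7219 RPKM. Mymk, which drives myoblast fusion, had 2.60, 839.6, 1027 and 800.1 RPKM. At 168 h against growth, 5 of the 8 had risen and 1 had fallen. Of 4 macrophage markers 2 were named and the defining Ptprc and Adgre1 were not. Cd68 had 0.308, 4.15, 4.83 and 4.41 RPKM, and Csf1r was at most 0.829 RPKM in any library. Of 4 adipocyte markers only Fabp4 was named, and of 3 endothelial markers only Cdh5, and neither passed 1 RPKM in any library. The part of other cell types in the values below was not tested.

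All 48 large and all 28 small subunit genes were assembled in the growth library, and they were expressed well above the typical gene. The median level over the 76 genes was 47.6 RPKM in growth, 37.3 RPKM at 60 h, 40.6 RPKM at 120 h and 31.5 RPKM at 168 h. Over all named genes the median was 11.0, 8.63, 10.8 and 8.91 RPKM in the same order. The large subunit genes together held 2701 ± 24.3, 2145 ± 16.8, 2367 ± 26.7 and 2023 ± 20.8 RPKM. The small subunit genes together held 1458 ± 20.9, 1053 ± 12.0, 1123 ± 19.9 and 1003 ± 12.2 RPKM. Both totals were highest in growth and lowest at 168 h, with limits apart from those of every other library. At 168 h the large subunit total was 74.9% and the small subunit total 68.8% of that in growth. The 76 genes took 0.432% of all fragments in growth, 0.336% at 60 h, 0.321% at 120 h and 0.301% at 168 h.

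The balance of the subunits moved little. The summed RPKM of the large subunit genes was 1.85 times that of the small subunit genes in growth, 2.04 times at 60 h, 2.11 times at 120 h and 2.02 times at 168 h. The median gene of the large subunit stood at 48.2, 37.6, 42.1 and 31.6 RPKM, and that of the small subunit at 41.0, 35.9, 39.2 and 30.5 RPKM. The lower ratio of totals in growth went with Mrps6, which held 205 of the 1458 RPKM of the small subunit in that library and 38.5 of 1003 RPKM at 168 h.

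**Figure D1:**
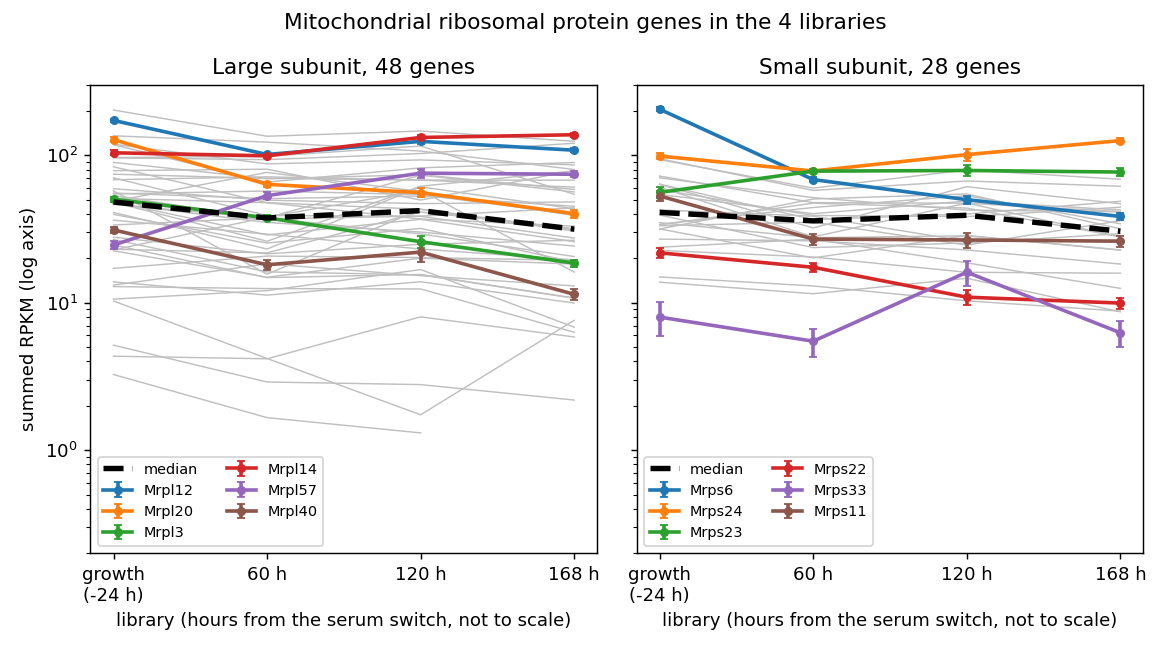
Summed RPKM on a log axis for the 48 large subunit genes (left) and 28 small subunit genes (right) in growth and then at 60 h, 120 h and 168 h. Each grey line is a gene, coloured lines are genes described in the text with bars to the deposited confidence limits, and the dashed line is the median, which is lower at 168 h than in growth for both subunits.

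Among the large subunit genes, Mrpl52, a protein that bacteria lack, had the highest mean level, with 203 ± 8.35, 135 ± 4.61, 146 ± 7.65 and 124 ± 9.82 RPKM in growth and then at 60 h, 120 h and 168 h. Mrpl12, the stalk protein that recruits translation factors, had 172 ± 4.70, 101 ± 2.86, 124 ± 4.51 and 108 ± 3.12 RPKM. Mrpl33, a small protein shared with bacteria, had 136 ± 9.40, 123 ± 4.57, 107 ± 6.04 and 80.1 ± 8.78 RPKM. These 3 genes were lower at 168 h than in growth, with limits apart, though none by 2-fold. Mrpl14, which lies at the face between the subunits, had 104 ± 4.01, 99.2 ± 3.04, 132 ± 5.57 and 138 ± 4.45 RPKM. Mrpl2, near the site of peptide bond formation, had 96.0 ± 3.64, 93.4 ± 2.66, 103 ± 4.06 and 121 ± 3.26 RPKM. Both were higher at 168 h than in growth with limits apart, and their log2 ratios were 0.40 and 0.33. The assembled transcript of Mrpl14 was shorter in the later libraries, and over a fixed length it had 95.3 RPKM at 168 h against 103 RPKM in growth.

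At the low end of the large subunit stood Mrpl23, Mrpl47 and Mrpl27, which all bind near the tunnel exit or the peptide bond site in the bacterial ribosome. Mrpl47 had 5.15 ± 0.521, 2.90 ± 0.285, 2.78 ± 0.422 and 2.19 ± 0.279 RPKM, lower at 168 h than in growth with limits apart. Mrpl27 had 4.33 ± 0.894, 4.16 ± 0.625, 8.02 ± 1.40 and 5.86 ± 2.05 RPKM, and its limits at 168 h and in growth overlapped. Mrpl23 had 3.26, 1.66 and 1.31 RPKM in growth and at 60 h and 120 h and was not assembled at 168 h, so no fold is given. Reads of Mrpl23 are uncertain, since 74.6% of its sampled 50-base words also occur in the pseudogene Mrpl23-ps1.

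Among the small subunit genes the highest mean levels were those of Mrps24, Mrps6, Mrps18a, Mrps23 and Mrps12. Mrps24, at the entry of the messenger RNA channel, had 98.8 ± 4.20, 78.2 ± 2.85, 101 ± 8.99 and 126 ± 4.26 RPKM. Mrps23, a mitochondrion-specific protein, had 56.0 ± 4.65, 78.1 ± 2.24, 78.8 ± 6.94 and 77.0 ± 4.41 RPKM. By the sum both were higher at 168 h than in growth with limits apart, by 0.35 and 0.45 on the log2 scale. Over a fixed length the ratio of Mrps23 was 0.47 and that of Mrps24 was 0.04, with 99.9 RPKM at 168 h against 97.2 RPKM in growth. Mrps18a, a paralogue that sits in the large subunit, had 93.4 ± 3.86, 59.9 ± 2.22, 79.5 ± 3.88 and 68.8 ± 2.66 RPKM. Mrps12, a protein of the decoding centre, had 94.8 ± 7.50, 57.8 ± 4.03, 66.9 ± 3.94 and 61.7 ± 2.79 RPKM. Those 2 genes were lower at 168 h than in growth with limits apart.

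The lowest small subunit genes were Mrps33, Mrps31 and Mrps5. Mrps33 had 7.98 ± 2.07, 5.48 ± 1.18, 16.1 ± 3.12 and 6.25 ± 1.28 RPKM, highest at 120 h. It rose at 120 h against 60 h and fell at 168 h against 120 h, and 18.3% of its words occur in the pseudogene Gm5776. Mrps31, which bacteria lack, had 15.0 ± 1.30, 12.98 ± 0.889, 10.3 ± 1.16 and 8.77 ± 0.805 RPKM. Mrps5, at the entry of the messenger RNA channel, had 13.8 ± 2.37, 11.5 ± 1.66, 14.6 ± 2.60 and 8.67 ± 1.48 RPKM. Both were lower at 168 h than in growth with limits apart, without reaching 2-fold.

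**Figure D2:**
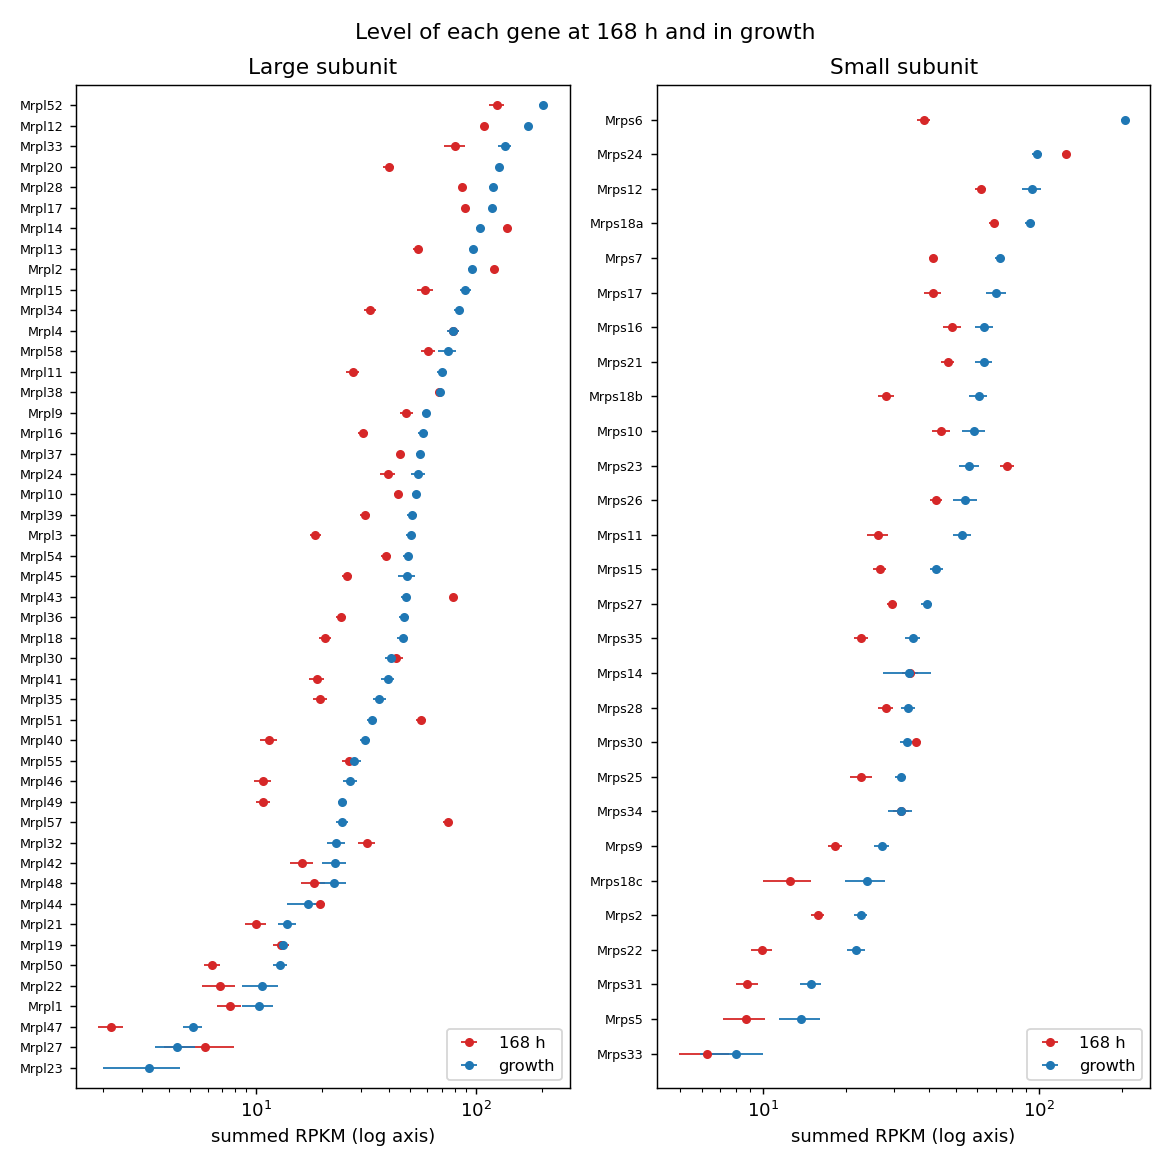
Summed RPKM on a log axis of each gene at 168 h (red) and in growth (blue), with bars to the deposited confidence limits, for the large subunit (left) and small subunit (right), ordered by the level in growth. The level at 168 h is below that in growth for 61 of the 76 genes, among them Mrpl23, which has no red point since it was not assembled at 168 h.

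At 168 h against growth, the widest span of the course, 13 of the 76 genes fell and 1 rose. Over the 12569 genes compared, 18.5% fell and 15.5% rose, so the share of members past 2-fold in the downward direction was near the background and the share past it upward was lower. The shift showed instead in the many smaller differences. Without the 2-fold threshold, 56 of the 76 genes were lower at 168 h with limits apart and 8 were higher, beside 39.4% lower and 30.4% higher over all genes. Limits are narrower relative to the value at higher levels, and the median member had 47.6 RPKM in growth beside 11.0 RPKM for all genes. The part of this in the count was not tested. The median log2 ratio was -0.47 for the 48 large subunit genes, -0.47 for the 28 small subunit genes and -0.14 for all genes. The median of the members lay below that of all genes by 0.32 on the log2 scale. Under 2 other scalings of the libraries this difference was 0.31 to 0.33. A scaling shifts the ratios of all genes nearly alike, so the difference was nearly fixed in advance and is no check.

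By the sum and over the fixed length together, 52 genes were lower with limits apart and 3 were higher, Mrpl2, Mrpl43 and Mrps23. Over all genes 33.5% were lower and 23.5% higher by that rule. By all 3 measures 10 genes fell and 0 rose, 8 of the large subunit and 2 of the small. Over the 10397 genes compared in all 3 ways 13.6% fell and 8.36% rose. For Mrpl11, Mrpl18, Mrpl20, Mrpl3, Mrpl34, Mrpl46 and Mrpl49 the ratio through the introns is that of the sum again. The third measure adds no check for them. In the fixed-length values 14 fell and 1 rose, beside 18.9% and 14.8%.

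Mrps6 showed the largest fall. This small subunit protein, whose bacterial homologue pairs with that of Mrps18c, was the highest small subunit gene in growth, with 205 ± 5.87, 68.4 ± 2.65, 50.0 ± 3.18 and 38.5 ± 2.08 RPKM in growth and then at 60 h, 120 h and 168 h. No 2 libraries had overlapping limits, and each later library lay below the one before. The log2 ratio at 168 h against growth was -2.39 by the sum and -2.43 over the fixed length. Through the introns, which is not a separate check on the sum here, it was -2.39. In the files it lay at chr16:92058536-92112482, plus strand. Of its words 32.5% also occur in the overlapping gene Gm49711, and its exons overlap Slc5a3 on the same strand, which was not named in any library.

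Of the large subunit genes assembled in both libraries, Mrpl20 and Mrpl3 fell most. Mrpl20, whose bacterial homologue is needed for early assembly of the large subunit, had 128 ± 4.56, 63.5 ± 2.72, 55.8 ± 3.74 and 40.2 ± 2.33 RPKM, a log2 ratio of -1.64 at 168 h against growth. Mrpl3, near the peptide bond site, had 50.3 ± 2.12, 37.7 ± 1.41, 25.9 ± 2.26 and 18.6 ± 1.05 RPKM, a log2 ratio of -1.39. Both were highest in growth and lower in each later library than in the one before, and both were assembled to a similar extent throughout, 863, 714, 652 and 677 bases for Mrpl20 and 1572, 1573, 1484 and 1536 bases for Mrpl3. In the files Mrpl20 lay at chr4:155176908-155183050, plus strand, and Mrpl3 at chr9:104955599-104979849, plus strand.

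3 of the fallen genes belong to the central protuberance, where the large subunit meets the head of the small one. Mrpl40 had 31.1 ± 1.61, 18.1 ± 1.44, 22.0 ± 3.15 and 11.4 ± 1.04 RPKM, with a log2 ratio of -1.37 at 168 h against growth. Mrpl46 had 26.8 ± 1.90, 16.2 ± 1.15, 15.5 ± 1.60 and 10.7 ± 0.973 RPKM, with a log2 ratio of -1.25. Mrpl18, a protein shared with bacteria, had 46.4 ± 2.56, 37.5 ± 2.48, 29.3 ± 2.34 and 20.6 ± 1.36 RPKM, with a log2 ratio of -1.13. By the sum, growth was the highest library and 168 h the lowest in all 3 genes, with limits apart. Over the fixed length Mrpl18 had 45.3, 19.5, 25.2 and 20.5 RPKM, lowest at 60 h, where its assembled length was 530 bases beside 993 bases in growth. Some proteins of the protuberance did not pass the rule, Mrpl38 and Mrpl48 among them. Whether proteins of this region fell more often than others was not tested. Mrpl38 had 68.3, 71.4, 67.9 and 67.8 RPKM, with limits that overlapped at 168 h and in growth. Mrpl48 had 22.5, 14.9, 20.1 and 18.3 RPKM, also overlapping.

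The remaining fallen genes were Mrpl11, Mrpl34, Mrpl49 and Mrps22. Mrpl11, at the base of the stalk, had 70.3 ± 3.89, 39.0 ± 2.28, 38.6 ± 2.64 and 27.4 ± 1.79 RPKM. Mrpl34, a short protein shared with bacteria, had 83.5 ± 4.10, 47.6 ± 2.49, 37.0 ± 3.22 and 33.0 ± 2.05 RPKM. In both, growth was the highest library and 168 h the lowest by the sum. For Mrpl34 the limits at 120 h and 168 h overlapped, and over the fixed length it had 30.1 RPKM at 120 h and 33.0 RPKM at 168 h. Mrpl49, which bacteria lack, had 24.6 ± 1.23, 14.8 ± 0.786, 15.5 ± 1.16 and 10.8 ± 0.755 RPKM. Mrps22, a small subunit protein that bacteria also lack, had 21.8 ± 1.62, 17.4 ± 1.12, 10.9 ± 1.25 and 9.94 ± 0.896 RPKM. The log2 ratios of the 4 genes at 168 h against growth were -1.32, -1.31, -1.12 and -1.06 in that order. Growth was again the highest library and 168 h the lowest for Mrpl49 and Mrps22 by the sum. The limits of Mrps22 at 120 h and 168 h overlapped. The stalk proteins Mrpl10 and Mrpl12 stayed under 2-fold, and Mrpl10 had 53.2, 37.1, 38.6 and 44.0 RPKM.

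Another 3 genes fell by the sum and by 1 of the other measures. Mrpl41 had 39.7 ± 2.74, 25.4 ± 1.64, 31.9 ± 2.81 and 18.8 ± 1.46 RPKM, with a log2 ratio of -1.04 by the sum and -0.92 over the fixed length. Mrps18b, a paralogue with its own site in the small subunit, had 60.7 ± 4.58, 27.9 ± 1.74, 47.4 ± 4.14 and 28.0 ± 1.84 RPKM, with ratios of -1.09 and -0.78. For Mrps18b 56.7% of the words occur in the antisense gene Gm16279, and the libraries do not mark strand. The other was Mrpl23, described above.

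**Figure D3:**
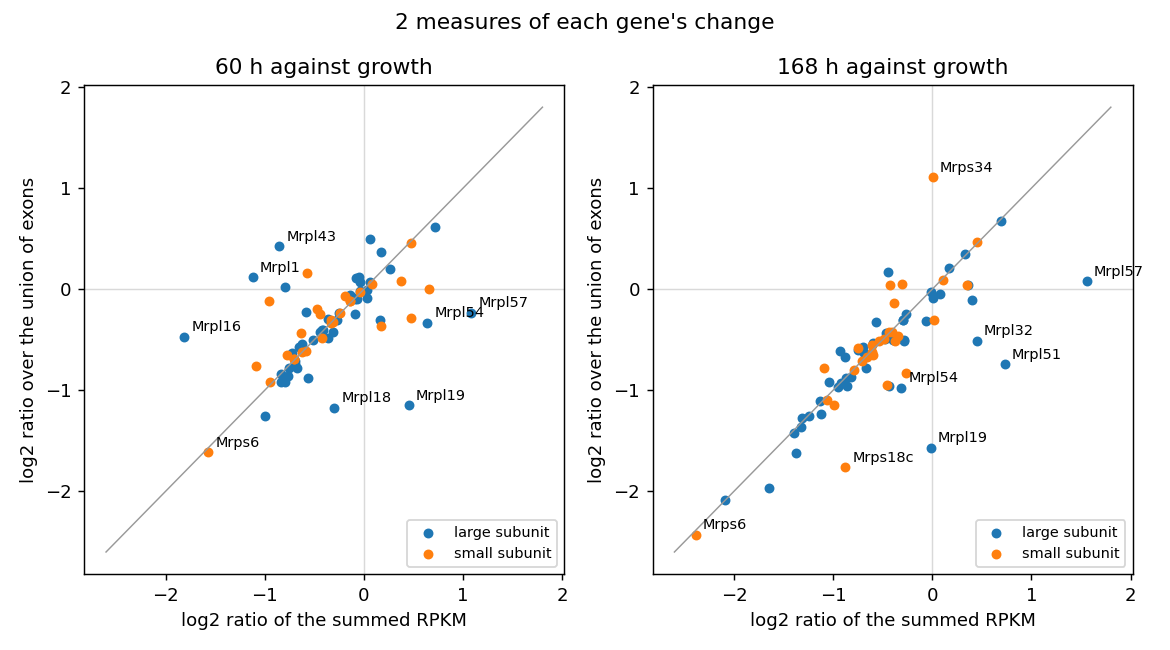
Log2 ratio over the fixed exon length (vertical) against log2 ratio of the summed RPKM (horizontal) for the 76 genes, at 60 h against growth (left) and 168 h against growth (right). Each point is a gene, and points off the diagonal, such as Mrpl57, are genes whose assembled length differed between the libraries.

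The 1 gene that rose by the sum, Mrpl57, did not rise over the fixed length. Mrpl57, a short protein that bacteria lack, had 24.6 ± 1.56, 53.3 ± 2.84, 75.6 ± 5.08 and 74.3 ± 3.33 RPKM in growth and then at 60 h, 120 h and 168 h. Its assembled length in the same order was 1758, 687, 484 and 616 bases. Over the fixed length it had 24.6, 20.8, 20.8 and 26.1 RPKM, and the log2 ratio at 168 h against growth was 0.08, beside 1.55 by the sum.

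Assembled length also differed in other genes whose ratios were among the largest. The assembled length differed over 1.5 times in 12 genes at 60 h against growth, 13 at 120 h against 60 h, 7 at 168 h against 120 h and 9 at 168 h against growth. Mrpl51 had 33.7, 37.7, 73.3 and 56.4 RPKM by the sum, with lengths of 2264, 1626, 788 and 791 bases, and 33.1, 26.6, 25.1 and 19.4 RPKM over the fixed length. By the sum 168 h was higher than growth, and over the fixed length it was lower. Mrpl19 had 13.2, 18.4, 15.3 and 12.99 RPKM by the sum and 13.2, 5.39, 4.48 and 3.77 RPKM over the fixed length, with lengths of 3841, 1128, 1127 and 1115 bases. It passed the rule as fallen over the fixed length alone, and 40.1% of its words occur in Gcfc2, which overlaps it on the opposite strand.

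At 60 h Mrpl16 and Mrpl43 were assembled longer than in the other libraries. Mrpl16, which contacts the aminoacyl-tRNA in bacteria, had 57.3, 15.6, 43.0 and 30.6 RPKM by the sum and lengths of 1041, 2715, 1073 and 1196 bases. Over the fixed length it had 21.9, 15.6, 17.0 and 13.4 RPKM, so the drop at 60 h was -0.47 on the log2 scale there and -1.81 by the sum. Mrpl43 had 48.0, 26.1, 61.7 and 78.4 RPKM by the sum, lengths of 1264, 3165, 1270 and 1260 bases and 19.1, 26.0, 24.6 and 31.0 RPKM over the fixed length. Its neighbour on the opposite strand, Twnk, the mitochondrial DNA helicase, had 21.4, 6.25, 26.4 and 22.0 RPKM, also lowest at 60 h by the sum. Mrpl43 was higher at 168 h than in growth by both measures, with log2 ratios of 0.70 and 0.68.

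Mrps34, a small subunit protein that bacteria lack, was joined to its neighbour at the last time point. It had 31.6, 50.5, 54.7 and 31.7 RPKM by the sum, with lengths of 1615, 1010, 974 and 3618 bases. At 168 h its only transcripts ran on through 6 introns into Nme3 on the same strand, and Nme3 itself had 4.78, 5.21, 6.01 and 0 RPKM. The value over the fixed length, 27.4 RPKM at 168 h against 12.2 RPKM in growth, therefore holds both genes.

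At 60 h against growth, the first span after the serum switch, 4 genes fell and 1 rose, beside 15.4% fallen and 11.0% risen over 12571 genes. The fallen genes were Mrps6, Mrpl16, Mrpl1 and Mrps18b, and the risen one was Mrpl57. Only Mrps6 passed by all 3 measures, with 68.4 ± 2.65 RPKM at 60 h against 205 ± 5.87 RPKM in growth and a log2 ratio of -1.57. Over all genes 7.84% fell and 5.3% rose by all 3 measures. Over the fixed length alone 4 genes fell, Mrps6, Mrpl18, Mrpl19 and Mrpl20, and 0 rose, beside 10.2% and 11.2% of all genes. Without the threshold 44 genes were lower at 60 h with limits apart and 9 higher, beside 41.5% and 24.8% over all genes. By the sum and over the fixed length together these were 38 lower and 2 higher, Mrpl42 and Mrps23, beside 31.6% and 19.6%. The median log2 ratio was -0.33 for the large subunit, -0.38 for the small subunit and -0.22 for all genes.

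Mrpl20, Mrps11 and Mrps21 were at the lower end of the range at 60 h. Mrpl20 had 63.5 ± 2.72 RPKM at 60 h against 128 ± 4.56 RPKM in growth, just under 2-fold lower. Mrps11, near the messenger RNA exit channel, had 53.0 ± 3.86, 27.0 ± 2.26, 26.6 ± 3.12 and 26.1 ± 2.32 RPKM, so it was lower at 60 h by -0.95 on the log2 scale and hardly differed after that. Its limits at 60 h, 120 h and 168 h overlapped one another. Mrps21 had 63.5 ± 4.44, 32.1 ± 1.79, 61.2 ± 3.67 and 46.9 ± 2.63 RPKM, lower at 60 h than in growth and at 120 h by the sum, and its length was 456, 829, 741 and 635 bases. Over the fixed length it had 34.9, 32.1, 54.7 and 35.9 RPKM, and the log2 ratio at 60 h against growth was -0.12, beside -0.96 by the sum.

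Genes at the upper end at 60 h were Mrpl42, Mrpl54, Mrpl19, Mrps34, Mrps28, Mrps23 and Mrps14. Mrpl42 had 22.8 ± 2.88, 38.1 ± 4.97, 57.9 ± 6.62 and 16.1 ± 1.96 RPKM, highest at 120 h by the sum, and over the fixed length 20.1, 31.3, 26.3 and 14.0 RPKM, highest at 60 h. Of its reads a part is uncertain, since 21.3% of its words occur in the pseudogene Gm6419. Mrpl54 had 48.8 ± 2.39, 76.5 ± 3.24, 56.8 ± 3.85 and 39.0 ± 2.18 RPKM by the sum, and over the fixed length 48.8, 38.6, 31.0 and 24.3 RPKM, lower in each later library. Mrps28 had 33.7 ± 1.95, 47.3 ± 2.32, 43.8 ± 3.38 and 28.0 ± 1.76 RPKM by the sum, and over the fixed length 33.1, 27.0, 22.6 and 18.2 RPKM, again lower in each later library. For Mrpl54 and Mrps28 the sum was higher at 60 h than in growth and the fixed-length value lower. Mrps14 had 34.0 ± 6.71, 44.3 ± 2.39, 53.2 ± 3.80 and 34.3 ± 2.24 RPKM, and its fixed-length values of 32.3, 34.2, 38.7 and 25.9 RPKM differed less at 60 h and in growth.

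At 120 h against 60 h, 4 genes rose and 0 fell, beside 12.4% risen and 3.87% fallen over 12572 genes. Under a pseudocount of 0.1 RPKM 1 gene fell. The risen genes were Mrpl16, Mrpl30, Mrpl43 and Mrps33, of which only Mrps33 rose by all 3 measures, beside 0.755% of all genes. None of the 76 fell by all 3 measures, beside 0.546%. In the fixed-length values Mrps33 rose and Mrpl1 and Mrps10 fell, beside 2.14% risen and 4.55% fallen over all genes. Mrpl30 had 40.9 ± 2.55, 23.1 ± 1.09, 61.1 ± 5.45 and 43.3 ± 3.28 RPKM by the sum and 22.0, 22.4, 28.5 and 21.2 RPKM over the fixed length, with a length of 904, 1629, 785 and 824 bases. Without the threshold 26 genes were higher and 21 lower with limits apart, beside 35.6% and 18.0% over all genes. By the sum and over the fixed length together 10 were higher and 18 lower, beside 12.6% and 15.3%. Median log2 ratios were 0.06 for the large subunit, 0.03 for the small subunit and 0.17 for all genes. By the other measures the members lay above all genes, with -0.05 beside -0.14 over the fixed length and 0.09 beside 0.01 through the introns. The direction of the subunit medians turned with the scaling, so no direction is given for this step.

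At 168 h against 120 h, 5 genes fell and 1 rose, beside 10.0% fallen and 4.15% risen over 12493 genes. Mrpl22, which lines the exit tunnel, had 10.6 ± 1.98, 12.1 ± 1.70, 16.8 ± 2.90 and 6.82 ± 1.18 RPKM, highest at 120 h and lowest at 168 h, with a log2 ratio of -1.18 for this step. It was the 1 gene fallen by all 3 measures, beside 0.796% of all genes, and 0 rose, beside 0.577%. In the fixed-length values Mrpl22 and Mrpl23 fell and Mrpl1 and Mrps34 rose, beside 2.66% fallen and 3.6% risen. For Mrpl22 32.4% of the words occur in the pseudogene Gm6997. Mrpl13, which is shared with bacteria, had 96.6 ± 3.74, 98.4 ± 2.97, 116 ± 6.25 and 54.4 ± 2.51 RPKM and fell by the sum and through the introns. The other fallen genes were Mrpl23, Mrpl42 and Mrps33. The risen gene was Mrpl1, a protein of the mobile stalk at the exit site, with 10.3 ± 1.65, 4.18 ± 0.332, 1.74 ± 0.695 and 7.59 ± 0.941 RPKM. At 120 h it had no transcript with an intron, and its lengths were 1160, 3156, 635 and 982 bases. Without the threshold 44 genes were lower and 10 higher with limits apart, beside 32.2% and 19.3% over all genes. By the sum and over the fixed length together 38 were lower and 8 higher, beside 14.4% and 14.7%. Median log2 ratios were -0.35 for the large subunit, -0.20 for the small subunit and -0.13 for all genes.

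Across the 75 genes with a value in every library, 21 (28.0%) were lower at each successive step, against 12.1% of the 10697 such genes among all named, and 0 were higher at each step, against 9.62%. Growth was the highest library for 48 (64.0%), against 40.3% of all genes, and 168 h was the lowest for 41 (54.7%), against 31.1%. Over the fixed length the counts were 30 lower at each step (40.0%, against 21.4%) and 2 higher (2.67%, against 12.9%). The 2 subunits gave similar shares, with 13 of 47 large and 8 of 28 small subunit genes lower at each step by the sum.

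The genes with a place of their own varied. Mrpl58, a peptidyl-tRNA hydrolase that frees stalled ribosomes and is built into the large subunit, had 74.4 ± 6.98, 69.7 ± 5.26, 67.9 ± 9.04 and 60.7 ± 4.50 RPKM. It was lower at 168 h than in growth with limits apart, by -0.29 on the log2 scale. Mrps30 and Mrps18a carry small subunit symbols but sit in the large subunit of the mammalian mitoribosome. Mrps30 had 33.3 ± 1.74, 35.1 ± 1.38, 24.6 ± 1.63 and 36.0 ± 1.47 RPKM, lowest at 120 h, with limits at 168 h and in growth that overlapped. With subunits counted by place in the particle instead of by symbol, the median log2 ratios at 168 h against growth were -0.46 for the large and -0.51 for the small subunit. Mrps18a stood above its paralogue Mrps18c in every library with limits apart, and Mrps18b did so in every library but that of 60 h, where their limits overlapped. Mrps18c had 23.8 ± 3.95, 27.0 ± 4.43, 18.6 ± 2.92 and 12.5 ± 2.48 RPKM, with assembled lengths of 517, 347, 357 and 236 bases.

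The 30 genes not named above by the rule that chose the genes for full values ranged between 6.30 and 89.4 RPKM at 168 h and between 12.9 and 119 RPKM in growth. Their log2 ratios at 168 h against growth lay between -0.93 and 0.45, with a median of -0.44. Of these 30, 24 were lower at 168 h with limits apart, 1 was higher and 5 overlapped. All 11 small subunit genes among them were lower. The higher one was Mrpl32, with 23.1, 21.8, 41.2 and 31.8 RPKM, whose lengths were 680, 783, 347 and 339 bases and whose fixed-length values were 20.0, 21.8, 18.3 and 13.8 RPKM.

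The members were also split by descent, into 47 proteins with a bacterial homologue and 28 without one, with Mrpl55 not classified. At 168 h against growth, 8 of the 47 fell and 0 rose, with a median log2 ratio of -0.57, and 5 of the 28 fell and 1 rose, with a median of -0.38. Over all genes 18.5% fell and 15.5% rose, so the fallen share of either class was near the background. Over the fixed length the medians were -0.58 and -0.54, so the gap between the 2 classes was smaller there.

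In 38 of the 76 genes, 23 large and 15 small, each library held exactly 1 transcript with introns and its introns were the same in all 4. In 2 more, Mrpl18 and Mrpl32, each library held 1 such transcript and its introns differed between libraries. At least 1 transcript with introns was held in every library for 74 genes. Mrps16, a small subunit protein shared with bacteria, was assembled with 2 intron chains that differ at 1 splice site. The chain whose first intron begins farther upstream held 64.7%, 57.9%, 100% and 81.5% of the spliced RPKM in growth and then at 60 h, 120 h and 168 h. Mrpl18 was assembled without its last intron at 60 h and with it in the other libraries. In Mrpl42, Mrpl48 and Mrps10 the introns of the gene were spread over separate transcripts in some libraries.

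Promoters of many members held sequence features that the choice of members did not use. RefSeq windows (GRCm38.p6) of 250 bases before to 50 bases after a start were held for 67 of the 76 genes, 73 windows in all, and were searched on both strands for 3 motifs. GCGCANGCG, the core of the motif of NRF1, a regulator of nuclear genes for mitochondria, was in 21.9% of members' windows and in 8.58% of 21263 windows of all protein-coding genes. CCGGAAG, a core bound by ETS factors including GABPA, was in 34.2% against 11.6%. AAGATGGCG, the core of a YY1 motif, was in 11.0% against 1.83%. Any of the 3 was in 56.2% against 19.6%, in 57.4% of large and 53.8% of small subunit windows. The windows of all protein-coding genes come from 17492 genes, expressed in these cells or not. The share among genes expressed like the members was not computed, so these shares do not mark the members off from such genes. The NRF1 and YY1 strings were shortened after a first search with longer ones. The last 3 letters of the ETS core are the first 3 of the YY1 motif, so a run can hold both. A match is not a bound site, and no binding was measured here.

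4 stretches upstream of a start are shown to set a gene with a motif of each common kind beside one with none, with matches in capitals. They are credited to RefSeq, run 5′ to 3′ on the gene's strand and stop short of annotated exons. Mrpl12, one of the highest genes, has the NRF1 motif read on the opposite strand, beginning 80 bases before the start (chr11:120484387-120484612, plus strand). Mrpl34, which fell, has the ETS core beginning 37 bases before the start (chr8:71464676-71464925, plus strand). Mrps18a has it beginning 26 bases before the start (chr17:46110754-46110985, plus strand), with the YY1 motif within the 50 bases after the start, which are not shown. Mrps6, which fell most, has none of the 3 letter strings in its window, which says only that these letters are not there (chr16:92058086-92058269, plus strand).
Mrpl12: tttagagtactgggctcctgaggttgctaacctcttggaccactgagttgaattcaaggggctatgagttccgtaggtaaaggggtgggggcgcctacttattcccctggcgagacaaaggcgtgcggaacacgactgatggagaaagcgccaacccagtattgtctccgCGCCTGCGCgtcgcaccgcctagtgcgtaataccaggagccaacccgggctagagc
Mrpl34: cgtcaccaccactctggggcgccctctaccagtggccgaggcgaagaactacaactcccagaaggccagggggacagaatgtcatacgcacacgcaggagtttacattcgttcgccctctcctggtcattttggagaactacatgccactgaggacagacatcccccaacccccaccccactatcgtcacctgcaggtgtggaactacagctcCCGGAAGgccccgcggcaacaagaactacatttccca
Mrps18a: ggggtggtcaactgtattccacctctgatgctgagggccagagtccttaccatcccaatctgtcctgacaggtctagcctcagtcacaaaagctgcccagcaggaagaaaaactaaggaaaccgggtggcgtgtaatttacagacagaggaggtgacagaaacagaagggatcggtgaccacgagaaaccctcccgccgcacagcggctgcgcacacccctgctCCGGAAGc
Mrps6: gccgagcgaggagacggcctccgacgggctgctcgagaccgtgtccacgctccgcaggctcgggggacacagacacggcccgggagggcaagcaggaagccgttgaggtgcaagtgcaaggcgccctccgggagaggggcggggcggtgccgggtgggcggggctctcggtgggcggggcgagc
Of the genes fallen by all 3 measures, Mrpl3, Mrpl18, Mrpl34 and Mrps22 hold the ETS core in their windows, and Mrpl11, Mrpl20, Mrpl40, Mrpl46, Mrpl49 and Mrps6 hold none of the 3. Of the 57 other members with a window, 37 hold at least 1 of the 3 and 20 hold none.

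Many members start close to a gene on the other strand. By GENCODE starts at most 500 bases apart and facing away from each other, or overlapping by at most 200 bases, 22 of the 76 genes (28.9%) had a protein-coding partner, against 11.3% of 12198 named protein-coding genes. Of the 21 partners with values, 11 were lower at 168 h than in growth, beside 55.7% of all genes. The median log2 ratio of the partners was -0.07. Member and partner differed in the same direction in 9 of the 21 pairs. Mrpl2 faces Klc4, which had 5.96, 11.0, 15.0 and 17.7 RPKM, higher at 168 h than in growth with limits apart. Mrpl40 faces Hira, a histone chaperone gene, which had 27.5, 16.8, 13.03 and 12.3 RPKM, lower at 168 h than in growth with limits apart. Mrpl51 faces Ncapd2, a condensin subunit gene, which had 52.5, 18.9, 11.8 and 4.48 RPKM. In RefSeq the starts of Mrps11 and Mrpl46, a small and a large subunit gene, lie 42 bases apart and point away from each other. The GENCODE rule above did not pair them. In GENCODE their exons overlap on opposite strands, and the libraries do not mark strand. Of the words of Mrps11 11.9% occur in other genes, with Mrpl46 as the top source. Mrps11 had 26.1 ± 2.32 RPKM at 168 h against 53.0 ± 3.86 RPKM in growth, and Mrpl46 had 10.7 ± 0.973 RPKM at 168 h against 26.8 ± 1.90 RPKM in growth, both lower with limits apart.

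Of 5 mitoribosomal proteins with other names, 4 were lower at 168 h than in growth with limits apart and 0 higher. By the 2-fold rule 2 fell and 0 rose at 168 h against growth, with a median log2 ratio of -0.55. Over all genes 39.4% were lower and 30.4% higher with limits apart, and 18.5% fell and 15.5% rose. Chchd1, of the small subunit, had 97.6, 59.1, 52.8 and 47.9 RPKM. Ptcd3, a pentatricopeptide protein of the small subunit, had 16.1, 11.9, 7.82 and 5.83 RPKM. Both fell and were lowest at 168 h. Gadd45gip1, of the large subunit, had 51.8, 6.98, 39.6 and 35.0 RPKM, lowest at 60 h. Dap3, a GTP-binding protein of the small subunit, had 50.4, 38.4, 45.9 and 37.2 RPKM. Aurkaip1, of the small subunit, had 117, 103, 130.1 and 131 RPKM, and its limits at 168 h and in growth overlapped.

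Genes that build or serve the mitoribosome differed from list to list. Of 26 named genes for assembly and RNA modification, 2 rose and 2 fell, with a median log2 ratio of 0.00, beside -0.14 for all genes. For this and the next lists, 15.5% of all genes rose and 18.5% fell at 168 h against growth. Over the fixed length 18.9% of all genes fell. Fastkd2, which binds the large ribosomal RNA, had 12.99, 6.88, 4.16 and 3.93 RPKM. Noa1, a GTPase of mitoribosome assembly, had 13.7, 7.20, 7.59 and 4.56 RPKM. Both fell at 168 h. Fastk had 40.4, 52.0, 72.9 and 92.5 RPKM and rose. Mrm2, a methyltransferase of the large ribosomal RNA, was listed at 0 in growth and had 6.26 RPKM at 168 h. Of 14 named translation factors 0 rose, 0 fell and the median was -0.18, and 1 fell over the fixed length. Of 19 named mitochondrial aminoacyl-tRNA synthetases 2 rose, 3 fell and the median was -0.25. Sars2, the seryl enzyme, had 9.92, 5.58, 4.68 and 4.05 RPKM. Yars2, the tyrosyl enzyme, had 17.6, 10.4, 8.26 and 6.73 RPKM. Both fell at 168 h. Of 17 genes for mitochondrial transcription and RNA handling 0 rose, 2 fell and the median was -0.30. Over the fixed length the medians were -0.01 for assembly, -0.24 for translation factors, -0.36 for the synthetases and -0.37 for transcription and RNA handling. All genes had -0.20 and the members -0.57 by that measure. There 68.4% of the synthetases and 58.8% of the transcription list were lower with limits apart, beside 40.9% of all genes.

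The subunits of oxidative phosphorylation encoded in the nucleus were taken by symbol after the values above were seen. Of 74 named genes 16 rose and 3 fell at 168 h against growth, with 45 higher and 13 lower with limits apart. Over all genes 15.5% rose and 18.5% fell, and 30.4% were higher and 39.4% lower with limits apart. Their median log2 ratio was 0.34, beside -0.47 for the mitoribosomal genes and -0.14 for all genes. Cox6a2, the muscle form of a cytochrome oxidase subunit, had 1.70, 442, 575 and 645 RPKM. Cox7a1, another muscle form, had 1.74, 35.6, 68.5 and 71.6 RPKM. Both rose at 168 h against growth. Uqcr10, a subunit of cytochrome bc1, had 174, 247, 429 and 456 RPKM. Ndufv1, the subunit of NADH dehydrogenase that binds NADH, had 139, 193, 249 and 314 RPKM. These 2 genes also rose at 168 h against growth. Some genes of this list were not assembled in single libraries, such as Ndufa5 with 113, 0, 109.8 and 0 RPKM.

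**Figure D4:**
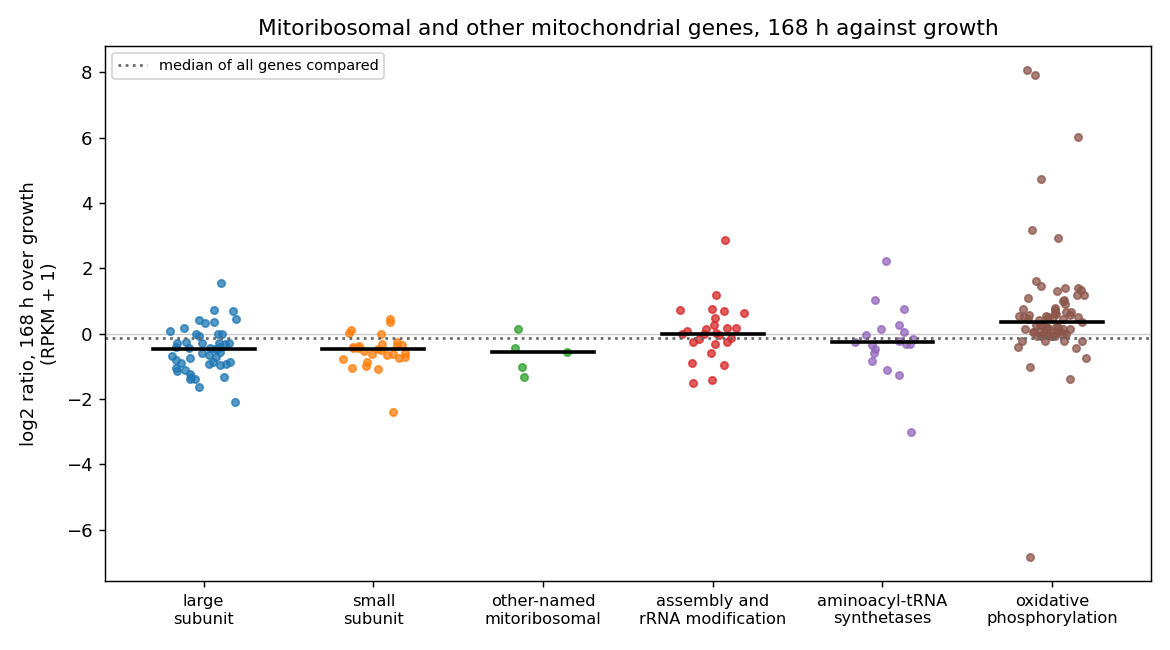
Log2 ratio of summed RPKM at 168 h against growth for large subunit, small subunit and other-named mitoribosomal genes, for genes of assembly and RNA modification, for mitochondrial aminoacyl-tRNA synthetases and for oxidative phosphorylation subunits. Points are genes, bars are medians and the dotted line is the median of all genes, -0.14, with the mitoribosomal medians below it and that of oxidative phosphorylation above.

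Part of these values rests on reads that another gene may share. Of the 76 genes, 35 had at least 5% of their sampled 50-base words in transcripts of another annotated gene, mostly processed pseudogenes or overlapping genes, and 27 overlapped exons on the opposite strand. With those 35 of the 76 set aside, 31 of the genes left were lower at 168 h than in growth with limits apart. Over all genes that share was 39.4%. The median log2 ratio was then -0.60 for the large and -0.51 for the small subunit genes.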

How the data were processed

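C2C12 cells were sequenced at 4 time points with 1 library each. Per the labels' protocols, polyadenylated RNA was fragmented by heat, copied from random hexamers without marking strand and sequenced as paired ends. The authors deposited 1 transcript assembly per library with an RPKM and confidence limits for each transcript. The submitters' processing notes name TopHat 1.0.13 and Cufflinks 0.8.0, and no source used here gives the genome build. The deposited score column was not used as a level. Total fragments per library were recovered from the deposited limits, which in genes with 1 transcript lie at a distance of 2 times the square root of its fragment number.

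Transcripts were named from GENCODE vM21 by runs of intron, exon and intron lengths on the same chromosome and strand, which gave a gene to 121754 of 137519 introns. Length alone gave one to 5391 more, lying between named neighbours. When a sample of named introns was searched with a wrong length, 1.75% still found a single match. This is not the share of the 5391 that are wrong. Single-exon transcripts were counted to a gene when at least 50% of them lay in its assembled exons. Named genes held between 77.3% and 81.9% of each library's fragments. Genes not assembled in a library were taken as 0. The limits of a gene's transcripts were added in quadrature, and those of the other 2 measures were scaled with the value. Each comparison was run over all named genes. The deposited limits of a member lay at a median of 5.27% to 7.68% of its value, depending on the library.

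The 4 comparisons used a pseudocount of 1 RPKM, a minimum of 1 RPKM in the higher library and no test. The members, lists and rules were chosen with earlier results of these data known. Full values are given for members that passed the rule by the sum and through the introns, for the largest and smallest ratios at 60 h and 168 h against growth, for the highest and lowest levels, for members not assembled somewhere and for those with a special place in the particle. Alternatives were a pseudocount of 0.1 RPKM, no minimum, median-ratio scaling, equal totals, both other measures, multi-exon transcripts alone, genes assembled in both libraries and subunits by place. The count without the 2-fold threshold and the count without members that share words of 50 bases with other genes were added after seeing the data. The NRF1 and YY1 letter strings were shortened after a first search with longer ones. The rule was tested on simulated data, but the outcome is not given here and lends no support to the values above. Analyses used Python 3.11.15 with numpy 2.4.6, pandas 2.3.3 and matplotlib 3.10.9.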

Additional observations from a re-analysis of the deposited data

How the results depend on the processing

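Of the 170 values recomputed under the alternatives, 139 kept their direction and stayed near the value given, 26 moved and 5 reversed. No paired analysis was possible because each time point has 1 library. Under median-ratio scaling, the median log2 ratio of the large and the small subunit was -0.10 and -0.15 at 60 h against growth, -0.13 and -0.17 at 120 h against 60 h, -0.19 and -0.042 at 168 h against 120 h, and -0.28 and -0.28 at 168 h against growth. That scaling moved the median of all genes at 168 h against growth to 0.04, beside -0.14. It left 2 genes fallen at 60 h against growth, 1 at 120 h against 60 h and 8 at 168 h against growth. Shares over all genes are not given for the counts in this section, so they are not read against a background. With equal totals the medians at 120 h against 60 h were -0.15 for the large and -0.19 for the small subunit, and 1 gene fell. A pseudocount of 0.1 RPKM, the measure through the introns and multi-exon transcripts alone each gave 1 fallen gene at that step. Over the union of exons the large subunit median there was -0.078, with 1 gene risen and 2 fallen. In the other spans the union gave 0 risen at 60 h against growth, and 2 risen and 2 fallen at 168 h against 120 h. Without the 35 members that share words, fewer genes are counted by construction. There 2 fell at 60 h and 8 at 168 h against growth, 2 rose at 120 h against 60 h, 0 fell at 168 h against 120 h, and 25 and 31 were lower with limits apart at 60 h and 168 h against growth. The small subunit median at 60 h against growth was then -0.25, and the large subunit median at 168 h against growth was -0.60. The cause of these moves was not tested. At 60 h and 168 h against growth, every setting kept both subunit medians below 0. In these comparisons the median of the members was below that of all genes by each of the 3 measures. Under the scalings that order was nearly fixed in advance, since a scaling shifts the ratios of all genes nearly alike. At 120 h against 60 h the members lay below all genes by the sum alone. Over the union they had -0.05 beside -0.14 for all genes, and through the introns 0.09 beside 0.01. Depth limits the low genes most, since the limits reach 63.2% of the value at 120 h.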

Other observations

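Transcripts of the mitochondrial chromosome, which encodes the RNAs of the mitoribosome and the proteins it makes, were assembled as single-exon stretches with no strand, so they could not be given to genes. One stretch of about the same extent was assembled in every library. It ran over chrM:10956-16284 in growth with 683 ± 4.24 RPKM, chrM:10975-16284 at 60 h with 868 ± 3.68 RPKM, chrM:10935-16272 at 120 h with 638 ± 4.42 RPKM and chrM:10974-16273 at 168 h with 890 ± 3.91 RPKM, in the coordinates of the files. The 120 h library held 2 further stretches, chrM:52-5134 with 490 ± 3.97 RPKM and chrM:5319-6760 with 1284 ± 12.1 RPKM, which were not assembled in the other libraries. The RNA was selected for polyadenylated ends, and these values are not a measure of mitochondrial DNA or of mitochondrial translation.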
